A study of Mus musculus with 6 samples.

Results

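The cornified envelope genes are the 49 genes whose symbols begin with Lce or Sprr and a digit, together with Lor, Flg, Flg2, Hrnr, Rptn, Ivl, Tchh, Tchhl1, Tgm1, Tgm3, Tgm5, Asprv1 and Casp14, chosen by symbol alone from the 32285 genes measured. Of these, 48 had at least 1 UMI (unique molecular identifier, a counted RNA molecule) in the cells kept. Skin of Balb/c mice was digested to single cells 2 days after 10 days of epicutaneous sensitization, and 3 libraries labelled EC-OVA (OVA-sensitized) were compared with 3 labelled EC-SAL (control); the tissue field reads the same in both groups. No transgene or allele is named. The cell type field reads CD4 for each library, whereas 8984 of the 24562 kept cells fell into epithelial clusters, and 97.9% of the UMIs of the 49 genes lay in those. Nothing in the labels says whether the libraries came from separate animals, so the p-values only weigh groups against library-to-library spread, and that spread may be technical.

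The cornified envelope is the protein shell that replaces the plasma membrane of a keratinocyte at the end of its life. Involucrin (Ivl), loricrin (Lor), the small proline-rich proteins (Sprr) and the late cornified envelope proteins (Lce) are its building blocks. Transglutaminases 1, 3 and 5 (Tgm1, Tgm3, Tgm5) cross-link them, filaggrin (Flg) and its relatives Flg2, Hrnr, Rptn and Tchh bundle keratin or fill the horny cell, and the proteases Asprv1 and Casp14 take part in the processing of filaggrin. In the mouse most of these genes lie together in the epidermal differentiation complex. In the annotation (GENCODE M21, GRCm38), 44 of the 49 lay on chromosome 3 between 92080271 and 93471980, a span of 1.39 megabases; Tgm3 and Tgm5 lay on chromosome 2, Asprv1 on 6, Casp14 on 10 and Tgm1 on 14.

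The libraries held 5240 to 7978 barcodes and 25350813 to 33650630 UMIs, and 3430 to 5010 cells were kept in each. The 49 genes took 0.149% to 0.158% of the kept UMIs in EC-SAL and 0.104% to 0.130% in EC-OVA. Barcodes over 15% mitochondrial UMIs were 19.1% to 19.7% of EC-SAL and 11.5% to 12.2% of EC-OVA barcodes, and 25.2% of all UMIs of the 49 genes lay in barcodes that the filters removed. The loss was unequal: kept cells held 71.5% to 72.6% of these UMIs in EC-SAL and 77.5% to 82.8% in EC-OVA. Barcodes over the mitochondrial limit held 20.8% to 23.1% and 12.9% to 17.0%. Pairs of libraries shared 33 to 87 barcodes. Other mitochondrial limits were tried, as given below, but the part of these differences in the results was not tested.

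Epithelial cells were clustered without the 49 genes, and clusters were called by markers of each state. Of the 4 suprabasal-like clusters, cluster 4 was led by Zfp750 and Ovol1 and cluster 6 by Serpinb3b, Krt2 and Grhl3. The leading genes of cluster 7 included Cnfn and Krt78, of late differentiation, and Krt24, a marker on the bulge and outer root sheath-like list. Cluster 7 raised 10 of 12 late suprabasal markers. Cluster 13 held cells of low UMI count and was left out of the order of states. A single upper follicle-like cluster was led by genes such as Cst6, Klk7, Defb6, Krt79 and Krt1. It raised 9 of 11 upper follicle-like markers, and also 8 of 10 suprabasal-like and 6 of 12 late suprabasal (granular-like) markers. The class thus also carried traits of differentiating suprabasal cells. Levels below are UMIs per 1000000 UMIs of the same cells (CPM), as the lowest, median and highest of the 6 libraries; they count 3' ends, so they are not divided by gene length. They are descriptions with no test.

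The summed level of the 49 genes climbed from the basal cells through the suprabasal clusters. It was 363, 391 and 425 CPM in basal-like cells, 1445, 1717 and 2291 in cluster 4, 5434, 6418 and 7563 in cluster 6 and 9666, 11732 and 12310 in cluster 7. In the upper follicle-like cells it was 8526, 10846 and 13738 CPM, within reach of cluster 7. Much of these sums was Sprr1a and Sprr1b, with medians of 5050 CPM in cluster 6, 6587 in cluster 7 and 8123 in the upper follicle-like cells. The 11 Sprr2 genes summed to medians of 1042 CPM in cluster 7 and 111 in the upper follicle-like cells. For the 14 Lce1 genes these were 125 and 26.6, and for the 6 Lce3 genes 121 and 93.1. Fibroblasts, which do not make an envelope, gave 26.2, 56.7 and 97.1 CPM.

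Of 38 genes with a median above 0 in some epithelial state, 22 had their highest median in suprabasal-like cluster 7 and 7 in the upper follicle-like cells. These counts include genes near the floor. The highest median was under 1 CPM for Lce1b and Lce1m (0.45 and 0.59 in cluster 7), Sprr2a1, Lce1a2, Lce1l, Lce1d and Tchhl1, so no state is read for those. For 8 of the 38, every library of the highest state lay above every library of the next: Sprr2d, Sprr2e, Sprr2h, Lce1f and Hrnr in cluster 7, Sprr1a and Casp14 in the upper follicle-like cells, and Tchh in the hair matrix and inner root sheath-like cells. For the other 30 the neighbouring states overlapped. The next state is the one with the next highest median, so single libraries of other states could lie within the range. Tchh was 470 CPM in the upper follicle-like cells of EC-OVA 1, where the lowest matrix library was 148. Lce1f was 129 CPM in the hair matrix and inner root sheath-like cells of EC-SAL 2, where the lowest library of cluster 7 was 61.6.

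**Figure D1:**
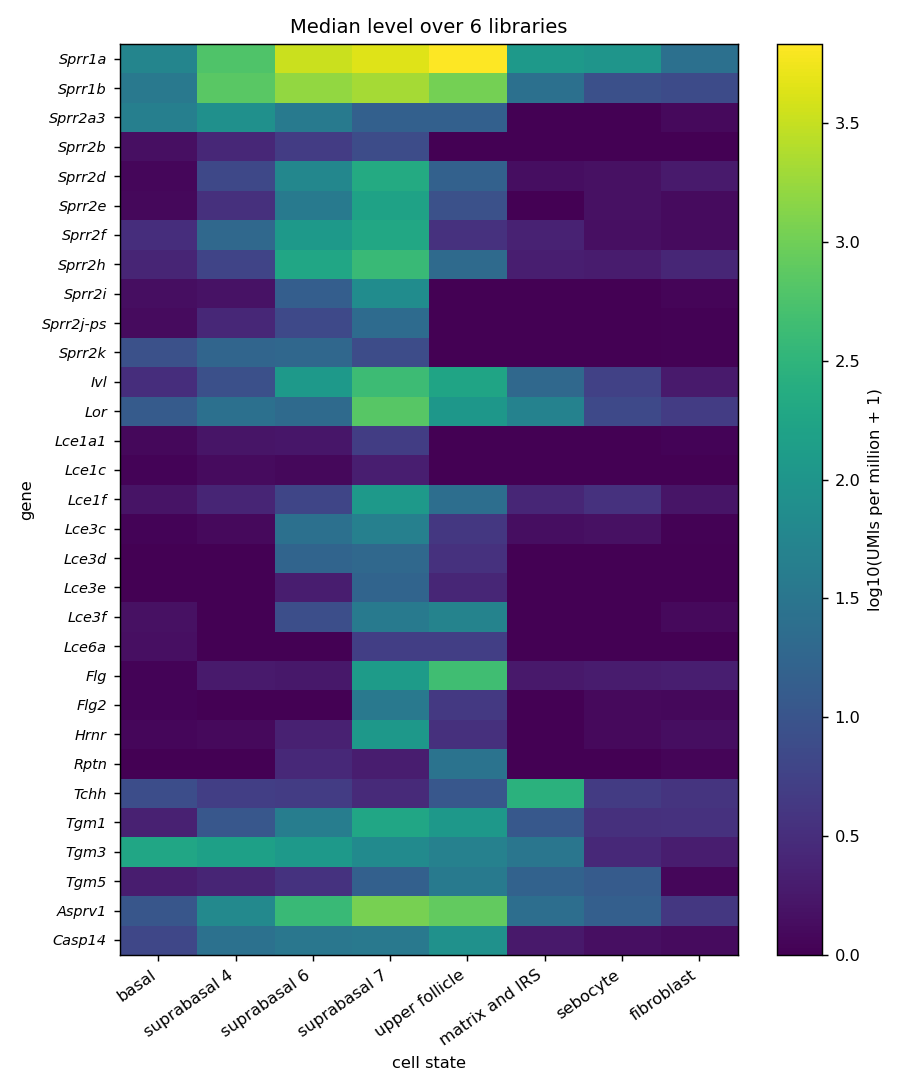
Map of the median level over 6 libraries, as log10(CPM + 1), of the 31 genes that reached a median of 1 in one of the states shown (rows) across cell states (columns; IRS, inner root sheath). Ivl, Lor, Sprr2h and Lce1f are brightest in suprabasal cluster 7, Sprr2a3 in cluster 4, Sprr2k in cluster 6, Sprr1a, Lce3f, Flg, Casp14 and Rptn in the upper follicle-like cells, Tchh in the matrix cells and Tgm3 in the basal cells.

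Among the small proline-rich genes, Sprr1a, an early stress-responsive envelope precursor, was 47.2, 54.9 and 97.5 CPM in basal-like cells, 2921, 3386 and 4000 in cluster 6 and 4271, 4480 and 5707 in cluster 7. It was higher still in the upper follicle-like cells, at 6305, 6829 and 10587 CPM, where 90.2% of cells had a UMI. Its neighbour Sprr1b ran another way, with 1778, 2109 and 2460 CPM in cluster 7 and 562, 1093 and 1581 in the upper follicle-like cells, and these ranges did not overlap. Sprr2h had 306, 395 and 504 CPM in cluster 7 and 6.96, 19.9 and 49.2 in the upper follicle-like cells. Sprr2a3 and Sprr2k were the Sprr2 genes of the map with their highest median outside cluster 7. Sprr2a3 was 17.3, 43.7 and 97.7 CPM in basal-like cells, 23.3, 81.7 and 411 in cluster 4 and 5.86, 13.8 and 107 in cluster 7, and Sprr2k was 7.04, 7.98 and 10.96 in basal-like cells, 6.15, 18.4 and 39.2 in cluster 6 and 0, 6.77 and 18.7 in cluster 7.

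Ivl was 249.5, 419 and 519 CPM in cluster 7 and 88.7, 170 and 255 in the upper follicle-like cells. Lor reached 63.6, 676.5 and 971 CPM in cluster 7 and 35.2, 107 and 405 in the upper follicle-like cells, so the libraries of both overlapped. Flg was the reverse of Lor, with 24.9, 124 and 695 CPM in cluster 7 and 179, 455 and 1097 in the upper follicle-like cells, again overlapping. Hrnr, a filaggrin relative, was 77.6, 110 and 217 CPM in cluster 7 and 0, 2.41 and 20.1 in the upper follicle-like cells.

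The filaggrin-processing proteases also differed in where they peaked. Asprv1 was 690, 1109 and 1432 CPM in cluster 7 and 576, 808 and 1177 in the upper follicle-like cells. Casp14 was 25.9, 34.9 and 50.1 CPM in cluster 7 but 54.4, 85.3 and 213 in the upper follicle-like cells. Of the 419 upper follicle-like cells, 68 had a Flg UMI; 66.2% of those 68 had a Casp14 UMI and 83.8% an Asprv1 UMI, against 19.4% and 42.2% of the cells without Flg, at median depths of 8689 and 5729 UMIs. Krt2, a keratin of the interfollicular suprabasal layers, was 223 CPM in the Flg-positive upper follicle-like cells and 24056 CPM in the 34 Flg-positive cells of cluster 7. The suprabasal keratins Krt10 and Krt1 were high in both, at 29048 and 18683 CPM in the former and 51803 and 6613 CPM in the latter.

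The 3 transglutaminases had 3 different patterns. Tgm1 followed the envelope proteins, from 0.577, 1.25 and 1.99 CPM in basal-like cells to 139, 185 and 232 in cluster 7. Tgm3 ran downward, from 149, 183 and 199 CPM in basal-like cells to 105, 150 and 173 in cluster 4, 89.5, 118 and 164 in cluster 6 and 45.3, 67.1 and 88.0 in cluster 7, and stood at 113, 220 and 247 in the low-UMI cluster 13. Tgm5 was highest in the upper follicle-like cells, at 19.3, 35.4 and 54.7 CPM. Tchh, which hardens the inner root sheath, was 148, 277 and 755 CPM in the hair matrix and inner root sheath-like cells and at most 20.8 CPM in any library of cluster 7. In the upper follicle-like cells Tchh reached 470 CPM in EC-OVA 1, and a single cell held 145 of its 175 UMIs in that class.

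The genes differed in how many cells carried them. In the 2484 suprabasal-like cells, the 5 cells with most UMIs held 65.9% of the Lce3d UMIs, 65.5% of the Flg UMIs and 38.3% of the Lor UMIs, but 5.93% of the Sprr2h, 6.74% of the Asprv1 and 2.61% of the Sprr1a UMIs, and Lce3d was found in 1.17% of cells where Sprr1a was found in 77.3%. The Lce1 genes were more uneven still. A single EC-SAL 2 barcode of 7184 UMIs and 517 genes held 3062 of the 4637 Lce1 UMIs in kept cells (66.0%), with UMIs of all 14 Lce1 genes, 674 of Lor, 321 of Flg, and none of Krt1, Krt25 or Krt71. Its cluster was called hair matrix and inner root sheath-like, and it sets the Lce1, Lor and Flg levels of that class in its library.

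**Figure D2:**
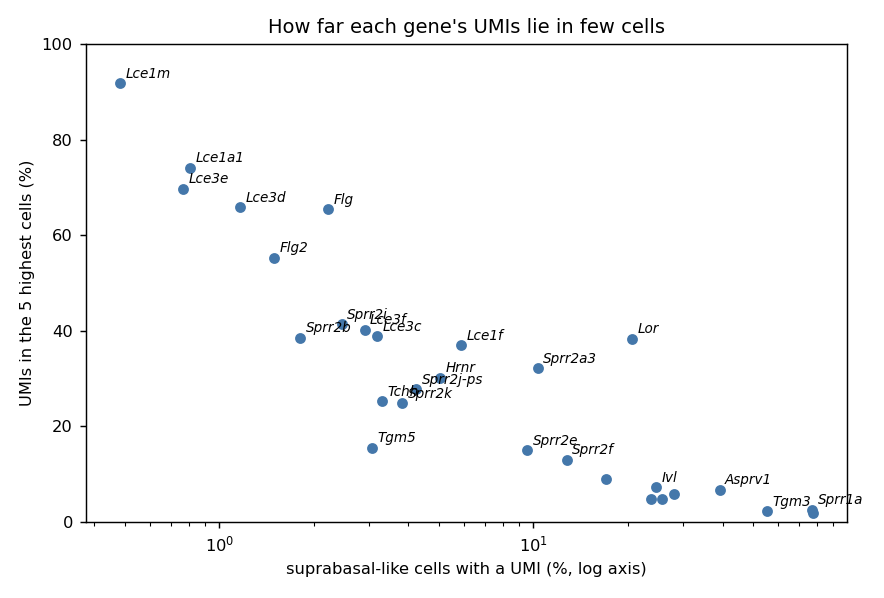
For each of the envelope genes with 50 or more UMIs in suprabasal-like cells, the percent of those cells with a UMI (horizontal, log axis) and the percent of the gene's UMIs in its 5 highest cells (vertical); some points at the lower right are not named. Lce1m, Lce1a1, Lce3e, Lce3d and Flg lie high on the left, with most UMIs in 5 cells, while Sprr1a lies low on the right.

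The upstream sequences, from RefSeq (GRCm38.p6), are shown for the 7 genes that were called in suprabasal-like cells between the groups. Each is the 250 bases before the start on the gene's own strand, 5' to 3', and capitals mark a match on either strand to TGANTCA, the letters that AP-1 binds, or, in Sprr2a3, to TTCNNNGAA, the letters of a STAT site.
Sprr1a (chr3:92485882-92486131, minus strand): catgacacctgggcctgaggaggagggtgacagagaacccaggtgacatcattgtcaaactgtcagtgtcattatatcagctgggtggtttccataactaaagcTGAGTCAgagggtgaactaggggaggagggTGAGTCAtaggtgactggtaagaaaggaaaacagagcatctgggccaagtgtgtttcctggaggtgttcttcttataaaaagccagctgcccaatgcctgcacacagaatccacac
Sprr1b (chr3:92438780-92439029, minus strand): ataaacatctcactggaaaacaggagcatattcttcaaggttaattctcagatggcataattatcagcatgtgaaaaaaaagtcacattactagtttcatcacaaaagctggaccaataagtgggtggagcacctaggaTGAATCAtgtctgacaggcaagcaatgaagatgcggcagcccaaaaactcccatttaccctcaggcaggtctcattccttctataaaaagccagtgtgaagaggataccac
Ivl (chr3:92573736-92573985, minus strand): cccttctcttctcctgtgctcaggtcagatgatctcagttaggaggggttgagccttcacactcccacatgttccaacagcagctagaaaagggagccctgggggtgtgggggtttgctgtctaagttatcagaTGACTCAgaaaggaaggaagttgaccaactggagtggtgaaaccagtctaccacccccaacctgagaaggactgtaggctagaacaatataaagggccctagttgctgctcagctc
Lce3c (chr3:92944236-92944485, plus strand): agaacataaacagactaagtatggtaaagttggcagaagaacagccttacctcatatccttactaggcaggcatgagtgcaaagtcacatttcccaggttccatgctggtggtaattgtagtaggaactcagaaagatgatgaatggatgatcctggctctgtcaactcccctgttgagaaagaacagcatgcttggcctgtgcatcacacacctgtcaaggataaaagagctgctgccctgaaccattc
Lce3d (chr3:92957140-92957389, plus strand): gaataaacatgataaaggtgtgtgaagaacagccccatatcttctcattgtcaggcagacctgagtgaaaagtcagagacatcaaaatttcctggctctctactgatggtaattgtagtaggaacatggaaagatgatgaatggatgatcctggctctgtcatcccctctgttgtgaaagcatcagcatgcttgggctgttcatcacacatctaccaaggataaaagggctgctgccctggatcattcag
Sprr2a3 (chr3:92285054-92285303, plus strand): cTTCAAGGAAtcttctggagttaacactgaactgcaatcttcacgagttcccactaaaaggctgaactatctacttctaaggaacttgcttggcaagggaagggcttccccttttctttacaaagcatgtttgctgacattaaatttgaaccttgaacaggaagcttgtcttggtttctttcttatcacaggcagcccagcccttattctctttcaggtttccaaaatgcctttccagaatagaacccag
Asprv1 (chr6:86627924-86628173, plus strand): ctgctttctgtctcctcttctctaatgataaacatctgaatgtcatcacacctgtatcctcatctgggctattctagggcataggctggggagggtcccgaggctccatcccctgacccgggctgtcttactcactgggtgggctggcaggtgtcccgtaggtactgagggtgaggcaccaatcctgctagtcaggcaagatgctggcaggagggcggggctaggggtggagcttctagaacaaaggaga
Sprr1a held 2 AP-1 matches, starting 146 and 116 bases before the start, and Ivl and Sprr1b held 1 each, starting 116 and 111 bases before it. Of the 47 envelope genes with a sequence in the table, 15 held an AP-1 match and 3 a STAT match, where 6.87% and 7.18% of 27025 promoters of the same length did. Sprr2a3 held a STAT match and no AP-1 match. Asprv1, Lce3c and Lce3d held neither, and Lce3c and Lce3d shared an identical run of 34 bases that began 119 and 122 bases before their starts. A match is a description of letters and not a site.

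After OVA, the suprabasal-like cells carried more RNA of 7 envelope genes, and no envelope gene was called lower. The comparison asked how the envelope genes differed between OVA-sensitized and control skin within one cell class, which sums clusters of several suprabasal states. Of 28 envelope genes with enough counts to test, Sprr1a, Sprr1b, Ivl, Asprv1, Lce3c, Lce3d and Sprr2a3 rose (edgeR quasi-likelihood test on summed counts, Benjamini-Hochberg adjusted p under 0.05), 25% of those tested against 0.802% of all 9224 genes called higher and 0.206% called lower. The median log2 fold change was 0.65 over the 28 and 0.00 over all genes tested. In bulk sums of a class, more cells that use a gene and more RNA per cell cannot be told apart. A change in the mix of clusters also enters such sums, and with the mix made equal only Lce3d was called, as given below.

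Sprr1a was 2350, 2183 and 2474 CPM in EC-SAL 1, 2 and 3 and 3020, 3284 and 3344 in EC-OVA 1, 2 and 3. The groups did not overlap, and the log2 fold change was 0.51 ± 0.08 (SE, n = 3 and 3; edgeR adjusted p = 0.0148). Sprr1b was 1305, 1332 and 1283 CPM in EC-SAL and 1671, 1544 and 1629 in EC-OVA. It was the smallest of the 7 changes, at 0.35 ± 0.06 (edgeR adjusted p = 0.0198), and the groups again lay apart. Sprr1a was found in 74.8% of EC-SAL and 82.9% of EC-OVA suprabasal-like cells, and in 62.8% and 74.4% after thinning each cell to 2000 UMIs. Median depths were 8777 and 10088 UMIs, and 82 and 40 shallower cells were left out; in fibroblasts, at median depths of 4049 and 5235, the unthinned shares were 7.90% and 4.82%.

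Ivl was 110, 92.0 and 121 CPM in EC-SAL and 157, 161 and 195 in EC-OVA, and every EC-OVA library was above every EC-SAL library. Its log2 fold change was 0.71 ± 0.11 (edgeR adjusted p = 0.0162). The protease Asprv1 was 403, 266 and 338 CPM in EC-SAL and 583, 591 and 448 in EC-OVA, without overlap, a log2 fold change of 0.74 ± 0.14 (edgeR adjusted p = 0.0422). The share of cells with an Asprv1 UMI was 34.9% in EC-SAL and 49.1% in EC-OVA, and 19.6% and 28.7% after thinning. Unthinned, it was 1.08% of EC-OVA fibroblasts and 1.49% of the fibroblasts of both groups together.

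The largest called changes were in the Lce3 pair, from low levels. Lce3d was 1.98, 5.08 and 7.55 CPM in EC-SAL and 25.3, 23.3 and 28.7 in EC-OVA, a log2 fold change of 2.46 ± 0.29 (edgeR adjusted p = 0.00548). These levels stood on 11, 26 and 40 UMIs in EC-SAL and 73, 58 and 82 in EC-OVA, found in 12 of 1736 and 17 of 748 cells. Lce3c was 12.4, 16.8 and 8.12 CPM in EC-SAL and 50.7, 22.5 and 40.3 in EC-OVA, a log2 fold change of 1.66 ± 0.27 (edgeR adjusted p = 0.0204). Sprr2a3 was 31.4, 18.6 and 42.8 CPM in EC-SAL and 79.5, 123 and 59.6 in EC-OVA, a log2 fold change of 1.53 ± 0.30 (edgeR adjusted p = 0.0422). For all 3 the groups did not overlap. They are uncertain as single genes: of the 50-base words in the last 500 bases of their transcripts, other envelope genes shared 39.8% for Lce3d, 36.1% for Lce3c and 63.3% for Sprr2a3, and how reads of near-identical copies were counted is not given in the sources used here.

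**Figure D3:**
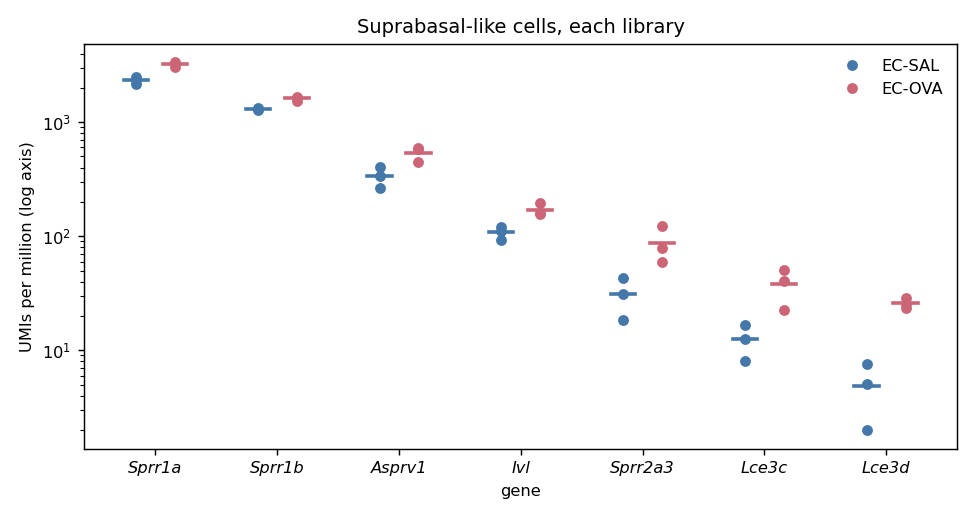
Level of the 7 genes that rose in suprabasal-like cells (CPM, log axis) in each EC-SAL and EC-OVA library (points), with the mean of 3 libraries (bars). In each gene the 3 EC-OVA points lie above the 3 EC-SAL points.

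Lor, Flg, Flg2, Hrnr, Tchh, Tgm1, Tgm3 and Casp14 did not pass the test. Lor was 197, 136 and 122 CPM in EC-SAL and 160, 155 and 26.6 in EC-OVA, with a log2 fold change of -0.37 ± 0.42 (edgeR adjusted p = 0.785), and the groups overlapped. Flg was 134, 9.77 and 8.49 CPM in EC-SAL and 43.0, 35 and 5.96 in EC-OVA, with a log2 fold change of -0.83 ± 0.94 (edgeR adjusted p = 0.779). A single cell held 374 of the 1069 Flg UMIs. Without EC-SAL 1 the Flg estimate was 1.63, and without EC-OVA 3 that of Lor was 0.11. Over 19 alternative settings Flg ran from -1.46 to 1.63 and Lor from -0.69 to 0.11. Flg and Lor each passed the threshold as lower in 1 of these settings, and Tgm3 in 2. Flg2 gave 0.73 ± 0.55 (edgeR adjusted p = 0.633), Hrnr -0.14 ± 0.33 (0.907), Tchh 0.04 ± 0.39 (0.984), Tgm1 0.14 ± 0.10 (0.605) and Casp14 0.19 ± 0.10 (0.485); the Hrnr sign turned without EC-SAL 1 or EC-OVA 3, and that of Tchh without EC-SAL 1 or EC-OVA 1. Tgm3 was 152, 134 and 126 CPM in EC-SAL and 118, 95.4 and 102 in EC-OVA; the groups did not overlap but the change of -0.34 ± 0.08 missed the threshold (edgeR adjusted p = 0.0954).

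**Figure D4:**
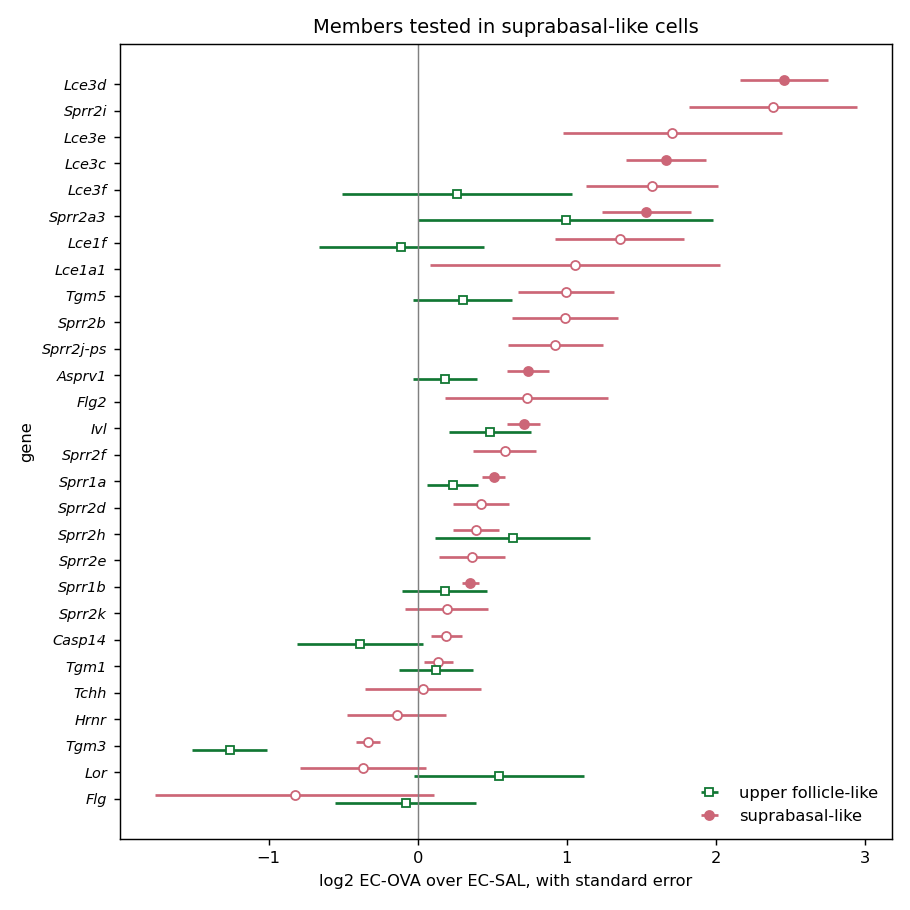
Log2 fold change of EC-OVA over EC-SAL with its standard error for the 28 envelope genes tested in suprabasal-like cells (circles, filled where the adjusted p was under 0.05) and for those of them also tested in upper follicle-like cells (open squares). The 7 filled circles lie right of 0, from 0.35 (Sprr1b) to 2.46 (Lce3d), and no square passed the threshold.

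How many of the 7 calls held depended on the cells and libraries entered. The mix of suprabasal clusters differed: cluster 4 was 35.7% ± 3.04 (SD, n = 3) of EC-SAL and 25.7% ± 2.16 (n = 3) of EC-OVA suprabasal-like cells, and cluster 6 was 42.2% ± 2.94 and 51.6% ± 4.26 (exact permutation test, two-sided, p = 0.1 for each, the smallest that 3 against 3 allows). With the mix of clusters made equal, only Lce3d was called (2.24, edgeR adjusted p = 0.0188), and Sprr1a gave 0.35 (0.0776), Sprr1b 0.26 (0.117), Asprv1 0.61 (0.0776), Ivl 0.58 (0.0592), Lce3c 1.47 (0.0692) and Sprr2a3 1.74 (0.0692). Leaving out EC-SAL 1, 2 or 3 left 3, 2 or 3 envelope genes called higher, and leaving out EC-OVA 1, 2 or 3 left 5, 6 or 2; Lce3d was called each time. Leaving out each gene's highest cell in each library kept 5 calls, without Lce3c (1.24, adjusted p = 0.135) and Sprr2a3 (1.04, adjusted p = 0.1). At a mitochondrial limit of 25%, 5 calls held, without Sprr1b (0.30, edgeR adjusted p = 0.111) and Lce3c (1.43, 0.0616). The Lce3d call was lost with doublets kept (1.96, edgeR adjusted p = 0.0851) and at a clustering resolution of 1.5 (1.95, 0.0562). That of Sprr2a3 was lost under 11 of the 19 alternative settings, among them DESeq2 (1.55, adjusted p = 0.108) and every set of 5 libraries. Over the 19 settings the 7 estimates kept their sign. Shares of all genes called under each setting are not given here, so a change in the number of calls is not read as particular to the envelope genes.

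Within single clusters, Asprv1 was the envelope gene called. It rose in cluster 4, from 46.7 ± 9.21 to 88.6 ± 18.0 CPM (SD, n = 3; log2 fold change 0.95 ± 0.17, edgeR adjusted p = 0.0284), and in cluster 6, from 271 ± 19.4 to 562 ± 49.4 CPM (1.09 ± 0.10, edgeR adjusted p = 0.000291). In cluster 7, the latest, it was 1034 ± 374 CPM in EC-SAL and 1080 ± 284 in EC-OVA (0.08 ± 0.24, edgeR adjusted p = 0.993). Called higher and lower among all genes were 0.206% and 0.055% in cluster 4, 0.199% and 0.0398% in cluster 6 and 0% and 0% in cluster 7. Unadjusted p was under 0.05 for 6 of 11 envelope genes tested in cluster 4, 13 of 20 in cluster 6 and 11 of 24 in cluster 7, where 10.2%, 8.86% and 5.71% of all genes tested were. Whether the Asprv1 change differed between these clusters was not tested.

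In the upper follicle-like cells no envelope gene was called, nor any of the 4962 genes tested by edgeR (0% higher and 0% lower), at 38 to 99 cells a library. Of 15 envelope genes tested, 1 had an unadjusted p under 0.05, as had 5.86% of all genes, and DESeq2 called none of them and 1 gene in all. Tgm3 was the envelope gene with an unadjusted p under 0.05, at 80.2, 62.6 and 61.7 CPM in EC-SAL and 32.0, 32.2 and 23.7 in EC-OVA. The groups lay apart for Tgm3, with a log2 fold change of -1.26 ± 0.25 and edgeR adjusted p = 0.331. Sprr1a was 7996, 6305 and 6346 CPM in EC-SAL and 10587, 6926 and 6732 in EC-OVA, overlapping, at 0.23 ± 0.17 (edgeR adjusted p = 0.947). Flg was 556, 353 and 777 CPM in EC-SAL and 179, 286 and 1097 in EC-OVA, with the highest and the lowest library both in EC-OVA. Estimates for Ivl, Lor, Casp14, Asprv1 and Tgm1 were 0.48, 0.54, -0.39, 0.18 and 0.12, none past the threshold; the sign of Lor turned without EC-OVA 3 and that of Casp14 without EC-SAL 3, and those of Asprv1, Tgm1 and Flg turned under other clusterings, filters or libraries.

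The difference of the OVA effect between the follicle and suprabasal classes was tested in a joint fit of 8107 genes, with 0.0863% called larger in the follicle and 0.037% called smaller. Of 26 envelope genes, Lce3d passed the threshold (edgeR adjusted p = 0.0112), but it had too few counts to be tested in the follicle class alone and entered this fit through its suprabasal counts. The follicle class held 10, 0 and 34 Lce3d UMIs in EC-SAL, the 34 in 1 cell, and 0, 1 and 1 in EC-OVA, so no difference is read from it. The call was lost without EC-SAL 3 (adjusted p = 0.314), without EC-OVA 3 (0.0797), without each gene's highest cell (0.886) and with no term per library (0.573). For Sprr1a the difference was -0.31 ± 0.15 (adjusted p = 0.971) and for Tgm3 -0.92 ± 0.25 (adjusted p = 0.461).

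In the hair matrix and inner root sheath-like cells 0% of 7280 genes were called higher and 0% lower by edgeR (DESeq2 called 2), and of 8 envelope genes tested 2 had an unadjusted p under 0.05, as had 6.03% of all genes, and DESeq2 called none. Tchh was 275, 148 and 755 CPM in EC-SAL and 169, 278 and 546 in EC-OVA, which overlapped, and the sign of its estimate of -0.23 turned without EC-SAL 3 or EC-OVA 1. Lor gave -2.26 ± 0.93 (edgeR adjusted p = 0.812) with the EC-SAL 2 barcode described above and 0.33 without EC-SAL 2. Estimates for Ivl, Asprv1 and Tgm3 were -1.48, 0.85 and 0.66, also not called; the sign of Ivl turned without EC-SAL 1 and that of Asprv1 without EC-OVA 2.

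In basal-like cells, 0.0422% of 9470 genes were called higher and 0.0106% lower, and Sprr2a3 was the envelope gene among them, of 9 tested. It was 35.2, 35.4 and 17.3 CPM in EC-SAL and 89.1, 51.9 and 97.7 in EC-OVA, without overlap, a log2 fold change of 1.44 ± 0.22 (edgeR adjusted p = 0.0356). The call was lost without EC-SAL 1 (adjusted p = 0.0985), EC-SAL 2 (0.0786), EC-OVA 1 (0.244) or EC-OVA 3 (0.189). Sprr1a was 47.2, 48.8 and 50.9 CPM in EC-SAL and 59.0, 97.5 and 74.4 in EC-OVA, at 0.68 ± 0.15 (edgeR adjusted p = 0.115). The groups lay apart for Sprr1a, Tgm3 and Lor. Tgm3 was 198, 199 and 189 CPM in EC-SAL and 176, 149 and 159 in EC-OVA (edgeR adjusted p = 0.253). Estimates for Tgm3, Lor, Casp14, Tchh and Asprv1 were -0.26, -0.44, -0.50, -0.20 and 0.03, none called; the sign of Tchh turned without EC-OVA 1 and that of Asprv1 under several settings.

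With all epithelial cells of a library summed, a fit added after the data were seen, the envelope genes mixed states as well as levels. Basal-like cells were 32.1% ± 1.09 (SD, n = 3) of EC-SAL and 20.3% ± 1.46 of EC-OVA epithelial cells, and sebocyte-like cells 12.5% ± 0.64 and 18.1% ± 0.98 (exact permutation test, two-sided, p = 0.1 for each). Of 29 envelope genes tested, Sprr2a3, Asprv1, Lce3c, Lce3d and Tgm5 rose and Tgm3 fell, where 2.44% of 12194 genes were called higher and 1.34% lower. Tgm3 went from 108 ± 7.0 to 67.8 ± 3.62 CPM (-0.68 ± 0.05, edgeR adjusted p = 0.00103). That was a larger fall than in the basal-like or suprabasal-like cells alone, and a smaller one than the -1.26 of the upper follicle-like cells. Sprr1a gave 0.39 ± 0.10 (edgeR adjusted p = 0.0631) and Flg -0.02 ± 0.38 (0.982).

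Other genes of the pathway were read in suprabasal-like cells from lists of textbook genes. Of 32 other envelope and cornified layer proteins tested, Krt1 rose, from 2986 ± 330 to 4619 ± 619 CPM (SD, n = 3; log2 0.68 ± 0.11, edgeR adjusted p = 0.0179), and none fell; the list's median was 0.16. None of 18 processing proteases and inhibitors was called by edgeR or DESeq2, and 5 had an unadjusted p under 0.05, as had 13.2% of all genes.

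Of 15 targets of NRF2, a stress-response regulator known to raise Sprr2 genes, Srxn1 (0.66 ± 0.12) and Me1 (0.49 ± 0.08) rose. Of 7 stress keratins and alarmins tested, Krt6a (1.46 ± 0.19) and Krt16 (0.71 ± 0.10) rose, and the median was 0.51. From a list that mixes IL-4 and IL-13 receptors and response genes with epithelial alarmins, 10 genes were tested. Of these, the alarmin Il33 (0.99 ± 0.13) and Postn (0.83 ± 0.15) rose. The alarmin Tslp fell by 0.84 on the log2 scale (SE 0.09). Postn was low, at means of 12.5 CPM in EC-SAL and 21.6 in EC-OVA, and the part of fibroblast RNA in it was not tested. The list is not read as a response to IL-4 or IL-13. Of 15 genes that tissue dissociation raises, Ier2 and Atf3 fell by 0.36 and 0.34, and their part in the envelope results was not tested. Markers of 13 other cell types were low in the suprabasal sums: the 6 fibroblast markers summed to 107 to 140 CPM in EC-SAL and 121 to 287 in EC-OVA, and the 7 lymphoid markers to at most 1.05 CPM, with Il2rb, Nkg7, Ptprcap, Trac and Trdc at 0.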

How the data were processed

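Per the file headers, the authors deposited UMI counts per gene and barcode made with Cell Ranger 3.1.0 (raw, whole numbers); STAR and mm10 are named in the submitters' processing notes. No source used here gives the annotation or how reads shared between genes were counted.

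Filters took out barcodes under 300 genes, those above 15% mitochondrial UMIs and then the highest Scrublet scores (124 to 325 barcodes a library, a preset rate), since Scrublet's own threshold marked at most 2 barcodes a library. Cells were clustered with scanpy 1.11.5 (2000 variable genes, 40 components, resolution 1.0), epithelial cells again without the 49 genes, and named from 3 or more raised markers. Clusters 0, 9 and 16 stayed unnamed. Counts were summed per library and class and tested with edgeR 4.0.16 (TMM, default count filter, no covariate, 3 against 3 libraries); the difference of effects had a term per library. DESeq2 1.42.0 was an alternative. On data simulated for the suprabasal comparison, 28.4% of genes changed by a log2 of 0.5 and 86.6% of those changed by 1 were recovered among 9238 genes. For the upper follicle-like comparison these were 19.4% and 79.1% among 4937. The simulation used a preset spread and changed only better-counted genes, so these shares need not hold for envelope genes whose UMIs lie in few cells. Shares of cells are unthinned unless stated. Named were the genes past the threshold, the 6 highest of each state, and Lor, Flg, Flg2, Ivl, Tgm1, Tgm3, Casp14, Asprv1, Tchh and Hrnr, and of the other lists up to 4 called genes. The 49 genes and all lists were chosen with earlier results of these data known. Some results are not reported here.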

Additional observations from a re-analysis of the deposited data

Results flagged for a closer look

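In the joint edgeR fit, the term for a different OVA effect on Lce3d in upper follicle-like than in suprabasal-like cells passed the threshold, with a log2 estimate of -6.21 (adjusted p = 0.0112). Lce3d had too few counts to be tested in the follicle class alone: the EC-SAL libraries held 10, 0 and 34 UMIs, the 34 in 1 cell, and the EC-OVA libraries 0, 1 and 1. The call was lost without EC-SAL 3 (adjusted p = 0.314), without EC-OVA 3 (0.0797), without each gene's highest cell (0.886) and with no term per library (0.573), so no difference between the classes is read from it.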

How the results depend on the processing

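Settings were changed one at a time, and the highest-cell setting was chosen after seeing the data. Of 799 alternative values, 663 kept their direction and side of the threshold, and 49 turned sign, all of estimates not called. The cause of the changes below was not tested. With no filter on low counts, 21 envelope genes were called higher and 3 lower in suprabasal-like cells, 5 and 2 in upper follicle-like cells, 15 lower in matrix cells and 4 higher in basal-like cells. In matrix cells a single EC-SAL 2 barcode held all 440 Lce1a1 UMIs and 321 of the 324 Flg UMIs. With the same mix of clusters 1 was called higher in suprabasal-like and 0 in basal-like cells; the follicle class is 1 cluster and cluster 8 of the matrix class held 15 cells, too few, so neither could be given it. In basal-like cells, mitochondrial limits of 10% and 25% and resolution 1.5 each called 2 higher, at least 1000 genes 3, doublets kept 2 higher and 2 lower, and members used in the clustering 2 higher and 1 lower. The difference of effects called 0 with no library block and 0 without the highest cells. The shares of all genes called under these settings are not given here, so the counts are not read as results about the envelope genes.

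Same-numbered libraries deviated together with correlations of -0.03 to 0.13, not all over 0.1 within any class, so the numbers were not taken to pair them; in each class some library deviated most like one of another number. With the replicate block, 6 envelope genes were higher and 1 lower (Tgm3, -0.34, edgeR adjusted p = 0.0481) in suprabasal-like cells, and Sprr2a3 had an adjusted p of 0.0531. The share of all genes called with the block is not given here, so these counts are not read as results about the envelope genes.

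Leaving out 1 library gave 2 to 6 envelope genes higher in suprabasal-like cells, 0 to 1 in basal-like cells, and 0 to 2 for the difference. These counts too are given without the share of all genes called, and are not read further. Log2 estimates over those sets ran from -0.74 to 0.33 for Tchh, -1.32 to 1.63 for Flg, -0.56 to 0.16 for Hrnr and -0.69 to 0.11 for Lor in suprabasal-like cells. In upper follicle-like cells they ran from -0.0823 to 0.38 for Asprv1, -0.22 to 0.29 for Tgm1, -1.26 to 0.32 for Flg, -1.19 to 0.23 for Casp14 and -1.50 to 0.97 for Lor. In matrix cells they ran from -2.79 to 0.33 for Lor, -0.75 to 0.68 for Tchh, -2.68 to 0.37 for Ivl and -2.81 to 1.67 for Asprv1, and in basal-like cells from -0.98 to 0.41 for Asprv1 and -0.50 to 0.0661 for Tchh.

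Other settings turned further signs. Suprabasal Tchh (0.04) was -0.0115 at 1000 genes, -0.0852 with the same mix and -0.57 without the highest cells. Follicle Asprv1 (0.18) was -0.19 and -0.29 at mitochondrial limits of 10% and 25%, -0.0553 with doublets, -0.30 with members, and -0.0536 and -0.33 at resolutions 0.6 and 1.5. Follicle Tgm1 (0.12) was -0.10, -0.13, -0.13, -0.0676 and -0.16 under the same settings less doublets, and follicle Flg (-0.08) was 0.0721 at 1000 genes and 0.16 without the highest cells. Matrix Lor (-2.26) was 0.24 at 10%, 0.29 at 1000 genes, 0.29 with doublets and 0.0391 without the highest cells, and matrix Tchh (-0.23) was 0.80 at 10% and 0.28 at 25%. Basal Asprv1 (0.03) was -0.27 at 10%, -0.50 with doublets, -0.26 with members and -1.05 without the highest cells. At 38 to 99 follicle cells a library, 19.4% of genes changed by a log2 of 0.5 were recovered in simulated data. The preset spread of that simulation need not hold for genes whose UMIs lie in few cells.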
